A study of Mus musculus with 6 samples.

Results

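Secreted and membrane proteins enter the endoplasmic reticulum (ER), leave it in vesicles coated by the COPII proteins, and are sorted at the Golgi, from which COPI-coated vesicles carry receptors and escaped ER proteins back. The genes of this route were followed in livers of mice with a G609G change in Lmna, which encodes the nuclear lamins A and C. Genes were taken by symbol: those of the signal recognition particle (Srp), the Sec61 channel with Sec62 and Sec63, the translocon-associated protein complex TRAP (Ssr), the signal peptidase subunits (Sec11), the COPII proteins (Sec13, Sec16, Sec23, Sec24 and Sec31), the COPI coat (Cop), the Arf GTPases, the p24 cargo receptors (Tmed) and the Sec22 SNAREs. The rule found 62 probe sets of 55 genes among 35512 probe sets, whose single-symbol annotations cover 19938 genes. The 55 genes comprised 16 of protein entry, 12 of COPII, 8 of the COPI coat, 6 Arf genes, 10 p24 genes and 3 Sec22 genes.

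There were 3 mice homozygous for the LmnaG609G allele (knock-in mice 1, 3 and 5) and 3 Lmna+/+ mice (wild-type mice 2, 4 and 6). All were C57BL/6 females, 3 months old, starved for 6 h before they were killed, and whole liver RNA of each mouse was hybridised to 1 array. The knock-in allele is a point change that alters splicing of the Lmna transcript and is used as a mouse model of Hutchinson-Gilford progeria, and it is present in every cell type of these mice. The measure was the intensity of a probe set, an array unit on a linear scale that is not comparable between probe sets. Changes are differences of log2(intensity + 16), knock-in minus wild-type, with their standard error (SE) from limma and n = 3 mice per genotype. A gene is called when its Benjamini-Hochberg adjusted p over all tested probe sets was below 0.05, and "rose", "fell" and "changed" are used of called genes.

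In hepatocytes this route carries the bulk of the plasma proteins and the lipoproteins. The signal recognition particle brings ribosomes that make a secreted protein to the ER membrane, the Sec61 channel lets the growing chain through, TRAP assists the channel, and signal peptidase removes the signal peptide. In COPII, Sec16 marks ER exit sites, Sec23 and Sec24 form the inner coat, with Sec24 binding the cargo, and Sec13 and Sec31 form the outer coat. COPI is recruited to Golgi membranes by Arf1 as a coat of several subunits, and the p24 proteins are cargo receptors that cycle between ER and Golgi in both kinds of vesicle.

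Of the array table, 26664 probe sets were tested and 25.9% were called, 15% higher and 10.9% lower in knock-in liver. For 1 probe set per named gene (16148 genes), the shares were 26.7% in either direction, 13% higher and 13.7% lower. Array medians were 101 to 104 in knock-in and 97 to 101.5 in wild-type mice. With arrays centred on their medians, which moves all knock-in changes down by about 0.05, 47.8% of calls (3141 higher, 3426 lower) were higher, against 57.8% of the calls from the values as deposited. The tissue label was checked against 10 hepatocyte markers, all measured, with mean intensities of 9532 to 17440. Their summed intensity ran from 131905 to 142889 in knock-in and from 143125 to 146737 in wild-type mice, and 1 of the 10 (Apoa2) fell. Markers of other cells moved with genotype too. Of 6 sinusoidal endothelial markers 5 fell and 1 rose (summed intensity 4457 to 5828 in knock-in, 5671 to 6245 in wild-type), of 8 macrophage markers 1 fell (2175 to 4197 in knock-in, 3734 to 6361 in wild-type), and of 5 neutrophil markers 3 rose (386 to 425 in knock-in, 273 to 312 in wild-type). Of 6 stellate cell markers 1 fell (Lrat, log2 change -1.16, limma adjusted p = 0.00709), and their summed intensity was 4081 to 5036 in knock-in and 5353 to 5502 in wild-type mice, without overlap. The largest values in that sum were those of Ecm1, 2410 to 2583 in knock-in and 2735 to 3083 in wild-type mice, which was not called. Reln, Des, Hgf and Col1a1 overlapped between the genotypes. Of 7 measured markers of B and plasma cells, themselves rich in secretory machinery, Cd79a, Ms4a1 and Jchain lay under the intensity filter and 1 of the 4 tested fell (Cd79b, log2 change -0.46, limma adjusted p = 0.00876). Their summed intensity of 1999 to 2273 in knock-in and 1832 to 2098 in wild-type mice was mostly that of Sdc1, which read 1688 to 1953 in knock-in and 1460 to 1756 in wild-type mice and was not called. The part of these cells in the results below was not tested, and in whole liver fewer cells of a type and less RNA per cell cannot be told apart.

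Of the 8 Cop genes 5 fell and 0 rose, COPII genes were called in both directions, and most genes of protein entry, the p24 receptors and the Sec22 SNAREs were not called. Of the 55 genes, 53 passed the filter on low values, and Tmed6 and Tmed11 did not. Of the 53, 11 fell, 2 rose and 40 were not called, so that 24.5% were called in all, close to the 26.7% of all named genes. The lower calls were 20.8% of the members and 13.7% of all named genes, and the higher calls 3.77% and 13%. The median log2 change was -0.17 over the 53 genes and 0.004 over all named genes tested. The 3 knock-in mice lay below all wild-type mice at 20 members and above them at 6, that is 37.7% and 11.3% of the 53, where 21.3% and 21.6% of all named genes, and 17.2% and 24% of all tested probe sets, did so. The counts moved as mice were left out in turn, while the median log2 change of the members stayed between -0.27 and -0.13. There were 3 lower calls without knock-in mouse 1, 19 without knock-in mouse 3, 5 without knock-in mouse 5, and 4 without wild-type mouse 2 or 6, and there was 1 higher call without knock-in mouse 1 or wild-type mouse 4 and 0 without wild-type mouse 2 or 6. Lower calls in the whole table numbered 2913 over all mice, 1810 without knock-in mouse 1 and 3456 without knock-in mouse 3.

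**Figure D1:**
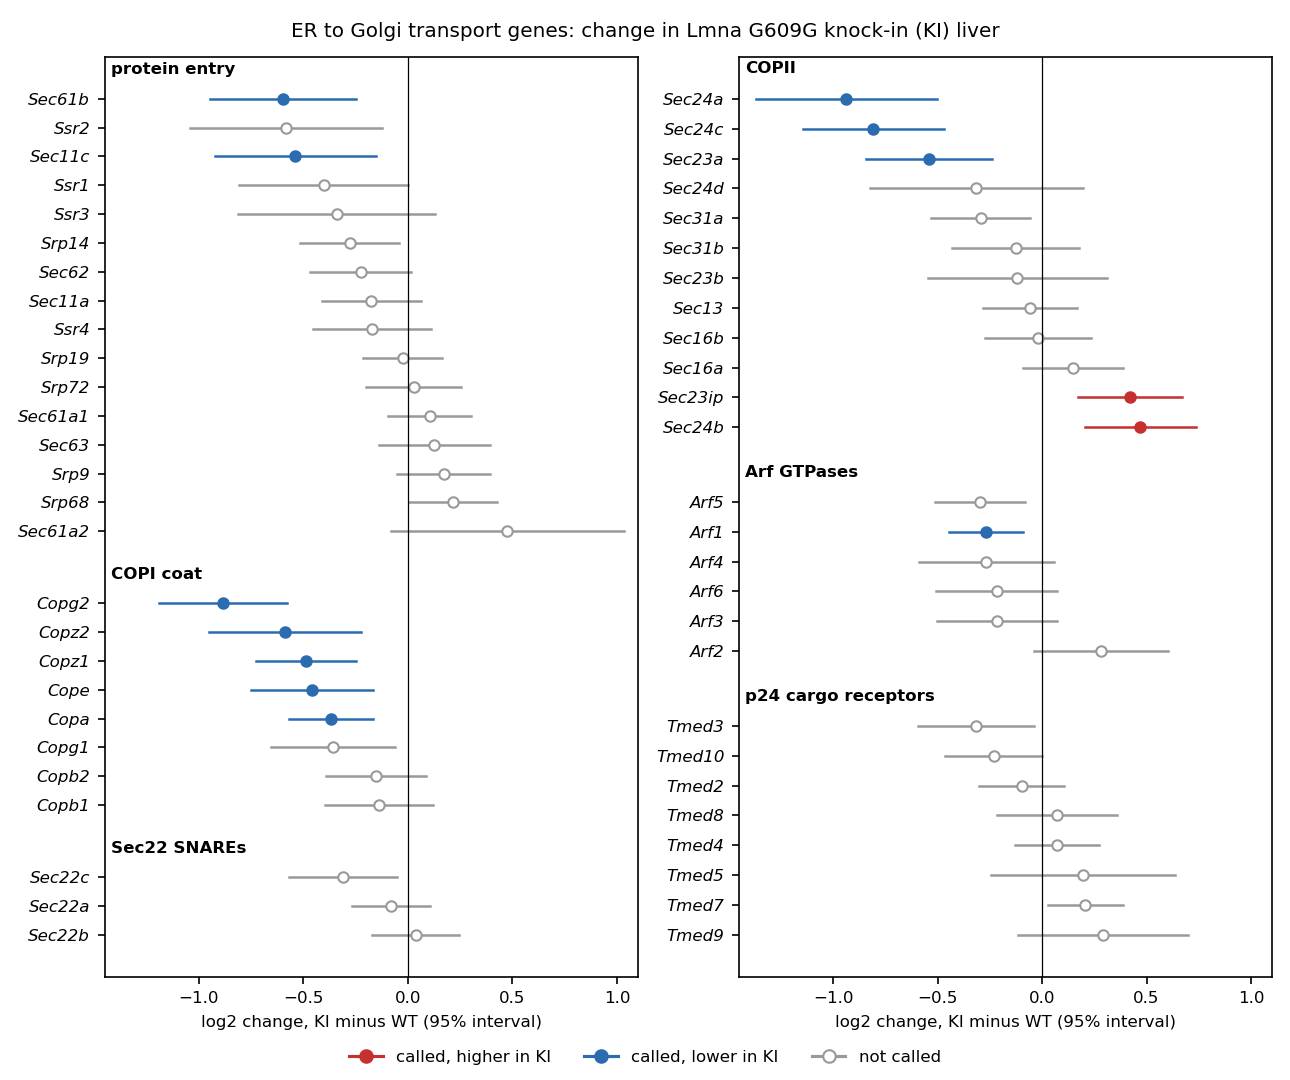
Log2 change (knock-in minus wild-type, limma) of each of the 53 tested genes with its 95% interval, grouped by part; filled points are called at an adjusted p below 0.05. All 8 Cop genes lie left of 0, and the COPII genes run from Sec24a at -0.94 to Sec24b at 0.47.

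The motifs bound by the transcription factors of ER stress were searched in the promoters of these genes (RefSeq, GRCm38.p6, 250 bases before to 50 after the annotated start), on both strands. Of the 55 genes, 46 had a promoter in the table. The UPRE core TGACGTGG, bound by XBP1 and ATF6, was in promoters of 6 members (Arf1, Copb1, Copb2, Sec16b, Sec23a and Sec24d), 13% of the 46, and in 1.0% of 12692 tested genes with a promoter. The sites are shown because they lie in genes of 3 different parts, 30 bases each on the strand of the gene, with the motif or its reverse complement in capitals:
Arf1 (chr11:59228228-59228257, minus strand): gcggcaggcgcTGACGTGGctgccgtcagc
Sec23a (chr12:59011993-59012022, minus strand): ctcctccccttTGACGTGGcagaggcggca
Sec16b (chr1:157506741-157506770, plus strand): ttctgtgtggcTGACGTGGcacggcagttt
Sec24d (chr3:123267459-123267488, plus strand): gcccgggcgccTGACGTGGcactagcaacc
Copb1 (chr7:114254690-114254719, minus strand): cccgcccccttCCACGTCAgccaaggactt
Copb2 (chr9:98563713-98563742, plus strand): tcccggaagttCCACGTCAgtgggttggcc
The match lies after the annotated start in Arf1 and Sec23a, spans it in Copb2, and lies before it in Copb1, Sec16b and Sec24d. Of these 6 genes, Arf1 and Sec23a fell and the other 4 were not called. Of all tested members 20.8% fell, and of all named genes 13.7%. Whether genes with the motif differ from the others was not tested. The CRE letters TGACGTCA were in 1 member, Cope, which fell, and in 3.07% of tested genes. That site is shown beside a match of the shorter ACGTGGC, which is in 16 members (34.8%) and 4.18% of tested genes, was chosen after the promoters had been searched, and overlaps the UPRE core in Arf1, Sec16b, Sec23a and Sec24d:
Cope (chr8:70302546-70302575, plus strand): gcggaggaatgTGACGTCAcggagagaccc
Sec24c (chr14:20674235-20674263, plus strand): gcctaaggccgACGTGGCagaaggagtgg
Because ACGTGGC was chosen after the search of these same promoters, its 34.8% beside 4.18% is no test of the motif. Of the 16 genes with ACGTGGC, 4 fell (Arf1, Copz2, Sec23a and Sec24c) and 12 were not called, a share near the 20.8% of all tested members that fell. The ER stress elements ERSE and ERSE-II were in 0 of the 46, and in 0.15% and 0.0709% of tested genes.

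COPII genes were called in both directions, and Sec24a and Sec24b were the paralogs called in opposite ones. Of 12 tested, 3 fell (Sec23a, Sec24a and Sec24c), 2 rose (Sec24b and Sec23ip) and 7 were not called, with a median log2 change of -0.12. The lower calls were 25% and the higher calls 16.7% of these genes, against 13.7% and 13% of all named genes. The share that rose was thus near that of all named genes. Sec24a, which encodes a cargo adaptor of the inner coat, read 1306, 1675 and 985 in knock-in mice 1, 3 and 5, against 2373, 2754 and 2352 in wild-type mice 2, 4 and 6. Every knock-in mouse lay below every wild-type mouse, and mouse 5 was the lowest. This is a log2 change of -0.94 ± 0.19 (1.91-fold lower at a limma adjusted p of 0.0100). Sec24c, an adaptor of the other Sec24 subfamily, read 916, 1217 and 846 in knock-in mice, against 1661, 1688 and 1841 in wild-type mice. The groups did not overlap, and knock-in mouse 3 was nearest to wild-type. The log2 change was -0.81 ± 0.14 (1.75-fold lower at a limma adjusted p of 0.00675). The calls of Sec24a and Sec24c held with each mouse left out in turn.

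Sec24b, the closest paralog of Sec24a, went the other way. It read 974, 1251 and 1040 in knock-in mice, against 773, 769 and 789 in wild-type mice, and here knock-in mouse 3 was farthest from wild-type. The log2 change was 0.47 ± 0.11 (1.38-fold higher at a limma adjusted p of 0.0216), and the call was lost without wild-type mouse 2, 4 or 6 (adjusted p = 0.0579 to 0.0705). Sec24d, the paralog of Sec24c, read 801, 1122 and 578 in knock-in mice, against 935, 1037 and 1046 in wild-type mice. The groups overlapped through knock-in mouse 3 (log2 change -0.32 ± 0.22, limma adjusted p = 0.348), and without that mouse the log2 change was -0.55 and called (adjusted p = 0.0339).

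Sec23a, the GTPase-activating subunit of the inner coat, read 1777, 2097 and 1515 in knock-in mice, against 2654, 2416 and 2733 in wild-type mice. Its log2 change was -0.54 ± 0.13 (1.45-fold lower at a limma adjusted p of 0.0205), lost without knock-in mouse 1 or wild-type mouse 2 or 6 (adjusted p = 0.0688 to 0.0728). Sec23b, its paralog, read 923, 1276 and 777 in knock-in mice, against 952, 1179 and 1048 in wild-type mice, and was not called (log2 change -0.12 ± 0.18, 95% interval -0.55 to 0.31). Sec23ip, which encodes a Sec23-binding phospholipase-like protein of ER exit sites and no coat subunit, read 946, 777 and 888 in knock-in mice, against 613, 669 and 649 in wild-type mice. It rose by 0.42 ± 0.11 on the log2 scale (1.34-fold; limma adjusted p = 0.0245), a call lost without knock-in mouse 1 or 5 or wild-type mouse 2 or 6 (adjusted p = 0.0644 to 0.0948).

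The outer coat and the exit site genes were not called. Sec31a read 2318, 2433 and 2373 in knock-in mice, against 2717, 3323 and 2744 in wild-type mice, a log2 change of -0.29 ± 0.10 (limma adjusted p = 0.0699) that was called with arrays centred on their medians (adjusted p = 0.0342). For Sec31b, Sec13, Sec16a and Sec16b the log2 changes lay between -0.13 and 0.15. Sec16a alone of these was higher in every knock-in mouse (846 to 993) than in every wild-type mouse (776 to 833), with a limma adjusted p of 0.345. The number of COPII genes that fell was between 2 and 4 as mice were left out, and the number that rose was 0 without wild-type mouse 2 or 6 and 1 without knock-in mouse 1 or 5 or wild-type mouse 4.

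**Figure D2:**
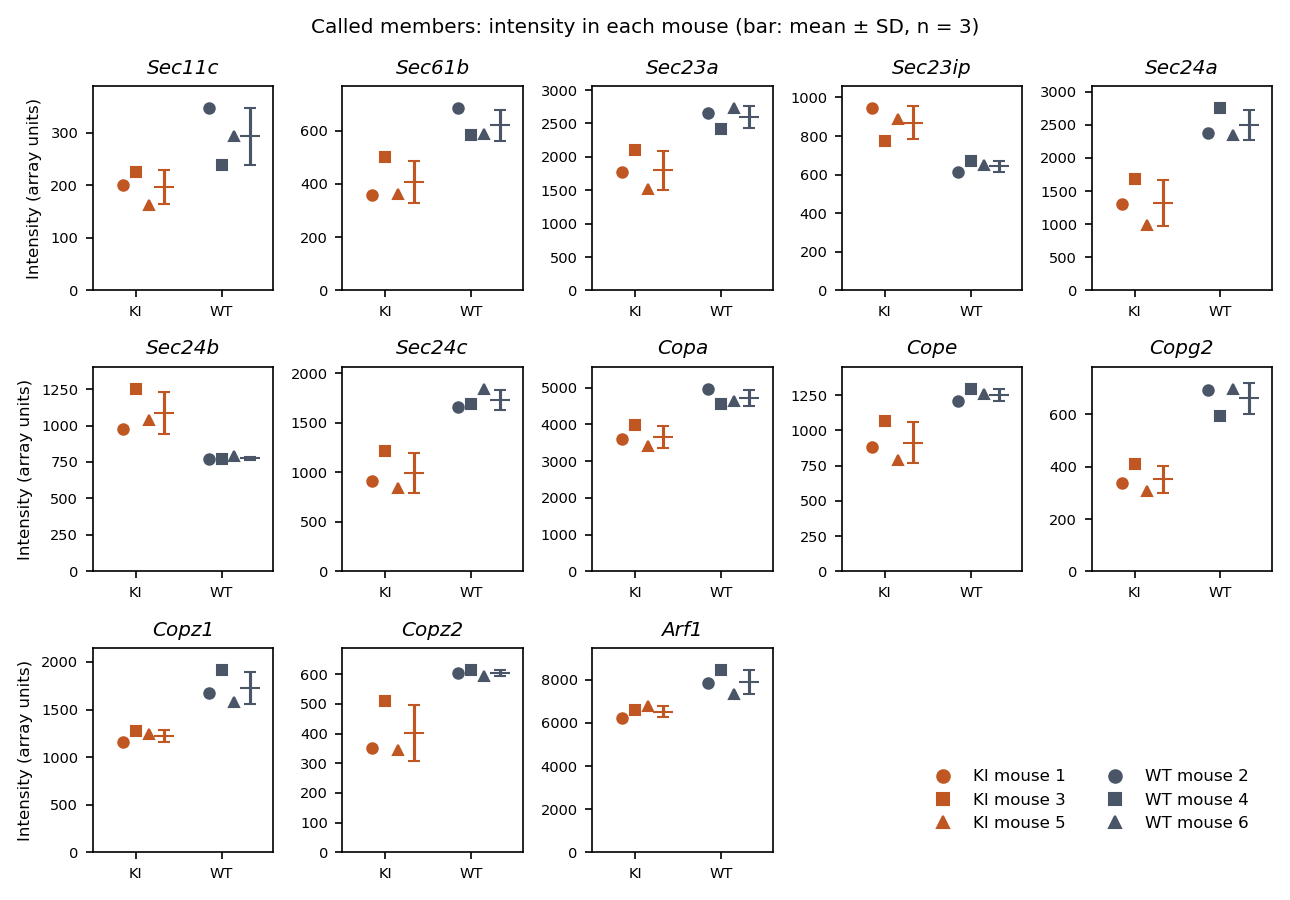
Intensity (array units, axis from 0) of the 13 called members in each mouse, knock-in left and wild-type right, with the mean ± SD of 3 mice beside the points. In each panel the knock-in and wild-type points do not overlap, and Sec24b and Sec23ip are the panels where knock-in is higher.

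All 8 Cop genes, which encode all COPI coat subunits but delta, had negative changes. Of these, 5 fell (Copa, Cope, Copg2, Copz1 and Copz2), 0 rose and 3 were not called, with a median log2 change of -0.41, while 13.7% of all named genes fell. Copg2, 1 of the 2 gamma subunits, read 339, 409 and 307 in knock-in mice, against 691, 594 and 697 in wild-type mice. The highest knock-in value stayed far under the lowest wild-type value, and the log2 change was -0.89 ± 0.13 (1.85-fold lower at a limma adjusted p of 0.00338), called with each mouse left out in turn. Copg1, the other gamma subunit, read 567, 716 and 591 in knock-in mice, against 715, 842 and 854 in wild-type mice. These groups met at knock-in mouse 3 and wild-type mouse 2, and the log2 change of -0.36 ± 0.13 was not called (limma adjusted p = 0.0769). It was called without knock-in mouse 3 (adjusted p = 0.0248), with arrays centred on their medians (adjusted p = 0.0473) and with array weights (adjusted p = 0.0303).

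The zeta subunit genes both fell. Copz1 read 1157, 1273 and 1238 in knock-in mice, against 1674, 1916 and 1584 in wild-type mice, with a log2 change of -0.49 ± 0.10 (limma adjusted p = 0.0128), lost without knock-in mouse 1 (adjusted p = 0.0571). Copz2 read 351, 511 and 345 in knock-in mice, against 603, 614 and 593 in wild-type mice. Knock-in mouse 3 lay between the other knock-in mice and wild-type, and the log2 change was -0.59 ± 0.16 (limma adjusted p = 0.0290).

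Copa and Cope encode the alpha and epsilon subunits, which sit together in the outer layer of the coat. Copa read 3587, 3987 and 3405 in knock-in mice, against 4962, 4550 and 4641 in wild-type mice (log2 change -0.37 ± 0.09, 1.29-fold lower at a limma adjusted p of 0.0192). Cope read 882, 1070 and 790 in knock-in mice, against 1206, 1295 and 1258 in wild-type mice (log2 change -0.46 ± 0.12, 1.37-fold lower at a limma adjusted p of 0.0324). No knock-in mouse reached a wild-type value in either gene, and in both the order within knock-in was mouse 3, then 1, then 5. The call of Copa was lost without knock-in mouse 1 or 5 or wild-type mouse 2 or 6 (adjusted p = 0.0589 to 0.0751), and those of Cope and Copz2 without any of the mice other than knock-in mouse 3 (adjusted p = 0.0758 to 0.107). The beta subunit genes were closest to 0 among the Cop genes, and the delta subunit gene Arcn1, which the symbol rule misses, was at -0.10 (limma adjusted p = 0.599). Copb1 had a log2 change of -0.14 ± 0.11 and Copb2, a subunit of the outer layer, one of -0.15 ± 0.10, with limma adjusted p-values of 0.428 and 0.335. The number of coat genes that fell was 1 without knock-in mouse 1, 2 without knock-in mouse 5 or wild-type mouse 2 or 6, 3 without wild-type mouse 4 and 6 without knock-in mouse 3, while the median log2 change stayed between -0.49 and -0.34.

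Among the Arf GTPases, which recruit COPI and other coats, 1 of 6 fell, 0 rose and 5 were not called. The share that fell, 16.7%, was near the 13.7% of all named genes, and the median log2 change was -0.24. Arf1, the member that brings COPI to the Golgi, read 6241, 6579 and 6762 in knock-in mice, against 7834, 8456 and 7354 in wild-type mice. The groups were separate but close, with a log2 change of -0.27 ± 0.08 (1.21-fold lower at a limma adjusted p of 0.0362). A further Arf1 probe set gave -0.28 ± 0.07 (limma adjusted p = 0.0224). The call was lost with no filter (adjusted p = 0.0515), without the mean-variance trend (adjusted p = 0.0537), and without any of the mice other than knock-in mouse 3 (adjusted p = 0.0504 to 0.119). Arf5 read 746, 799 and 825 in knock-in mice, against 933, 1020 and 970 in wild-type mice, a log2 change of -0.30 ± 0.09 at a limma adjusted p of 0.0513, and it was called with arrays centred on their medians (adjusted p = 0.0273), with array weights (adjusted p = 0.0256), without the mean-variance trend (adjusted p = 0.0314) and with a filter at the 50th percentile (adjusted p = 0.0429). Arf3, Arf4 and Arf6 had log2 changes of -0.27 to -0.22 with overlapping groups, and Arf4 was called without knock-in mouse 3 (adjusted p = 0.0363). Arf2 had a log2 change of 0.28 ± 0.14 (limma adjusted p = 0.183). Arf genes are alike in sequence, so probe sets of one may hybridise with transcripts of another, and which member changed is uncertain.

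Of 16 genes of protein entry, 2 fell, 0 rose and 14 were not called (12.5%, against 26.7% of all named genes), with a median log2 change of -0.17. Sec61b, the beta subunit of the channel, read 358, 500 and 363 in knock-in mice, against 685, 584 and 588 in wild-type mice. Its log2 change was -0.60 ± 0.15 (1.51-fold lower at a limma adjusted p of 0.0237), and 2 further probe sets of the gene also fell (-0.41 ± 0.09 and -0.42 ± 0.10; limma adjusted p = 0.0154 and 0.0207). The call was lost without any of the mice other than knock-in mouse 3 (adjusted p = 0.0512 to 0.0891). Sec61a1, the main pore subunit, read 4870, 5123 and 4352 in knock-in mice, against 4367, 4627 and 4314 in wild-type mice. These groups overlapped and the log2 change was 0.11 ± 0.08 (limma adjusted p = 0.426). Sec61a2, its paralog, was more variable, with 537, 400 and 264 in knock-in mice, against 319, 261 and 242 in wild-type mice (log2 change 0.48 ± 0.24, limma adjusted p = 0.193), and was called at 0.73 without knock-in mouse 5 (adjusted p = 0.0294). Sec62 and Sec63, which help post-translational entry, had log2 changes of -0.23 ± 0.10 and 0.13 ± 0.11 (limma adjusted p = 0.158 and 0.480).

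The TRAP genes depended on knock-in mouse 3. Ssr2 read 2009, 2846 and 1592 in knock-in mice, against 2940, 3390 and 3101 in wild-type mice, a log2 change of -0.58 ± 0.20 (limma adjusted p = 0.0659). Ssr1 read 1414, 1987 and 1233 in knock-in mice, against 1904, 2179 and 1947 in wild-type mice (log2 change -0.40 ± 0.17, limma adjusted p = 0.132). Ssr3 read 1231, 1924 and 1091 in knock-in mice, against 1655, 1908 and 1675 in wild-type mice (log2 change -0.34 ± 0.20, limma adjusted p = 0.272). In all 3 genes mice 1 and 5 lay below every wild-type mouse, while mouse 3 lay within or just under the wild-type range for Ssr1 and Ssr2 and above it for Ssr3. Without mouse 3 all 3 were called, with log2 changes of -0.60 for Ssr1, -0.81 for Ssr2 and -0.58 for Ssr3 (limma adjusted p = 0.00390 to 0.00841). Ssr2 was also called with array weights (adjusted p = 0.0211) and with a filter at the 50th percentile (adjusted p = 0.0481). Ssr4 had a log2 change of -0.17 ± 0.12 and was not called in either case.

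Of the Sec11 genes, the catalytic subunits of signal peptidase, Sec11c fell and Sec11a was not called. Sec11c read 201, 226 and 162 in knock-in mice, against 347, 239 and 293 in wild-type mice. Knock-in mouse 3 and wild-type mouse 4 were nearly level, and the log2 change of -0.54 ± 0.16 passed narrowly (1.45-fold lower at a limma adjusted p of 0.0483). It was lost with no filter (adjusted p = 0.0732) and without knock-in mouse 1 or 5 or wild-type mouse 2 or 6 (adjusted p = 0.111 to 0.143). Sec11a read 891, 979 and 858 in knock-in mice, against 1014, 961 and 1111 in wild-type mice (log2 change -0.17 ± 0.10, limma adjusted p = 0.263). The 5 genes of the signal recognition particle, Srp9, Srp14, Srp19, Srp68 and Srp72, had log2 changes of -0.28 to 0.21 and none was called by limma. Srp14 was lower in every knock-in mouse (209 to 221, against 234 to 287), with a limma adjusted p of 0.0830, and Srp9 and Srp68 were higher in every knock-in mouse, with adjusted p-values of 0.237 and 0.128. A further Srp9 probe set overlapped between the genotypes, with 325 to 362 in knock-in and 264 to 336 in wild-type mice (limma adjusted p = 0.290). Srp14 was called without wild-type mouse 4 (adjusted p = 0.0489), with quantile normalization (adjusted p = 0.0438) and with array weights (adjusted p = 0.0331). The number of protein entry genes that fell was 5 without knock-in mouse 3, 2 without wild-type mouse 4 and 0 without any of the other mice, and 1 rose without knock-in mouse 5.

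None of the 8 tested p24 genes and none of the 3 Sec22 genes was called by limma. The log2 changes of the p24 genes ran from -0.32 (Tmed3) to 0.29 (Tmed9), with a median of 0.07. Tmed10 and Tmed2, the partners that form the core of p24 complexes, read 1675 to 1981 and 3665 to 4431 in knock-in mice, against 2027 to 2279 and 4260 to 4375 in wild-type mice. Their log2 changes were -0.23 ± 0.10 and -0.10 ± 0.09 (limma adjusted p = 0.130 and 0.477), and the further probe sets of both genes had changes of the same sign. Tmed7 read 4552, 4547 and 4935 in knock-in mice, against 3909, 3958 and 4285 in wild-type mice, with no overlap, and missed the threshold (log2 change 0.21 ± 0.08, limma adjusted p = 0.0900). Tmed3 was called without knock-in mouse 3 (log2 change -0.43, adjusted p = 0.0157) and with array weights (adjusted p = 0.0368). Tmed6 and Tmed11 read 33 or less in every mouse and were not tested. Sec22b, the SNARE of ER to Golgi vesicles, had a log2 change of 0.04 ± 0.09 (95% interval -0.17 to 0.24). Sec22c had one of -0.31 ± 0.11 (limma adjusted p = 0.0778), called without knock-in mouse 3 (adjusted p = 0.0405), with arrays centred on their medians (adjusted p = 0.0450) and with quantile normalization (adjusted p = 0.0499), and Sec22a one of -0.08 ± 0.08.

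**Figure D3:**
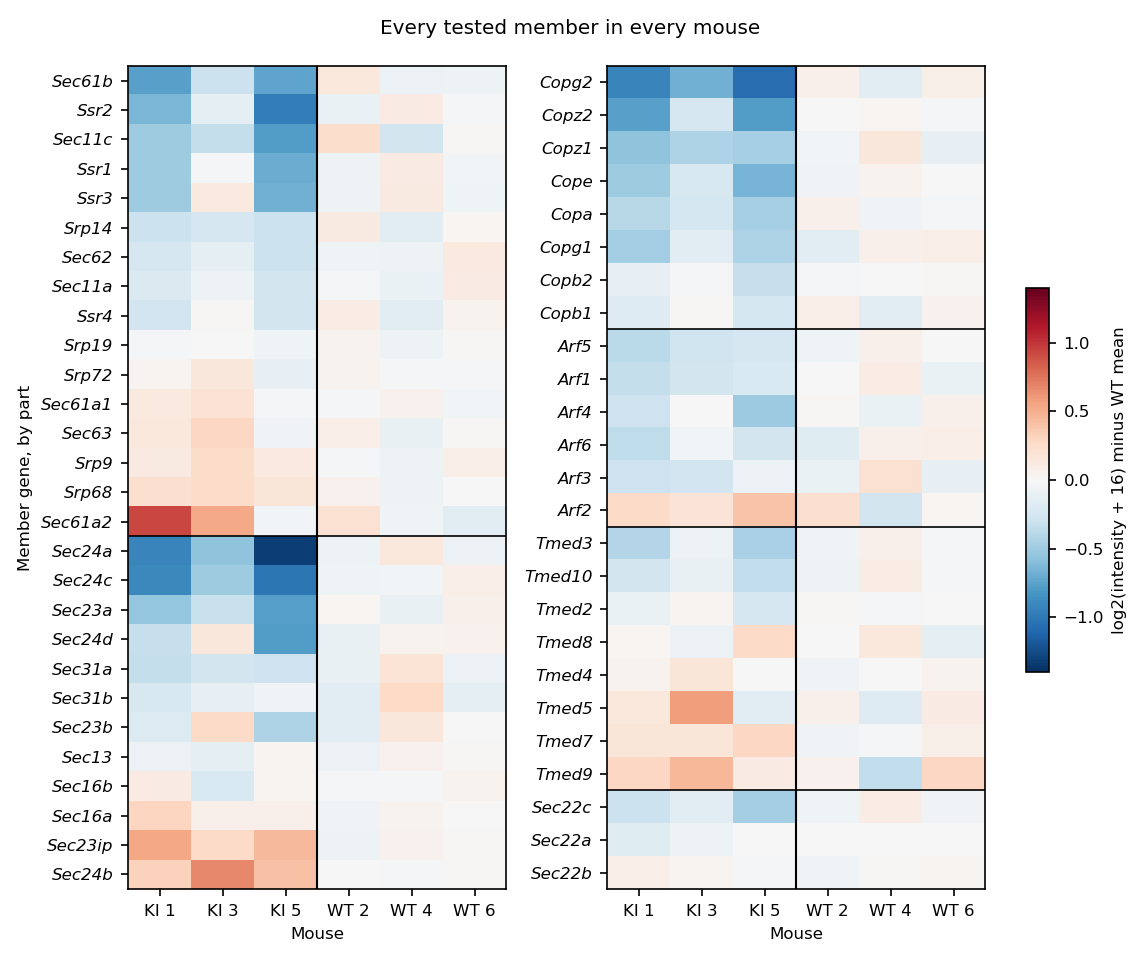
Each of the 53 tested members in each mouse as log2(intensity + 16) minus the mean of the wild-type mice, blue for lower and red for higher, with rows grouped by part and parts separated by lines. The column of knock-in mouse 3 is paler or redder than those of knock-in mice 1 and 5 in most rows of protein entry and of the COPI coat.

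The knock-in mice were not alike over these genes. Mouse 3 had the highest of the 3 knock-in values at 39 of the 53 members, including 15 of 16 protein entry genes and all 8 COPI genes, where it was highest at 41.3% of all named genes. Mouse 5 had the lowest knock-in value at 34 of the 53, against 29.9% of all named genes. Among the Arf genes mouse 3 was highest at 2 of 6.

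Paralogs that share a role were compared within each mouse, since their ratio does not depend on the scaling of the array. Of 9 pairs, 6 had ratios that did not overlap between the genotypes (exact two-sided permutation p = 0.10 each, the smallest that 3 mice against 3 allow, and 0.15 after adjustment over the 9 pairs). The share of other gene pairs without overlap was not computed, so the 6 of 9 cannot be set against one. Of single named genes, 21.3% had all knock-in mice below all wild-type mice, and 21.6% had them above, which is no background for ratios. Sec23a, Sec24a, Sec24c, Copg2 and Sec11c were themselves called lower, so the ratios of their pairs in part restate those calls. The largest shift was that of Sec24a over Sec24b, whose log2 ratio was -0.08 to 0.42 in knock-in and 1.56 to 1.82 in wild-type mice, a difference of -1.41 ± 0.18 (SE, n = 3 mice per genotype). Copg2 over Copg1 shifted by -0.53 ± 0.14, Sec24c over Sec24d by -0.49 ± 0.14, Sec23a over Sec23b by -0.42 ± 0.15, Sec11c over Sec11a by -0.36 ± 0.16 and Sec31a over Sec31b by -0.17 ± 0.06. The ratios of Copz2 to Copz1 (-0.10 ± 0.17), Sec16a to Sec16b (0.17 ± 0.08) and Sec61a2 to Sec61a1 (0.37 ± 0.27) overlapped between the genotypes. The wild-type ratios compare probe sets and are no measure of which paralog is more abundant.

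**Figure D4:**
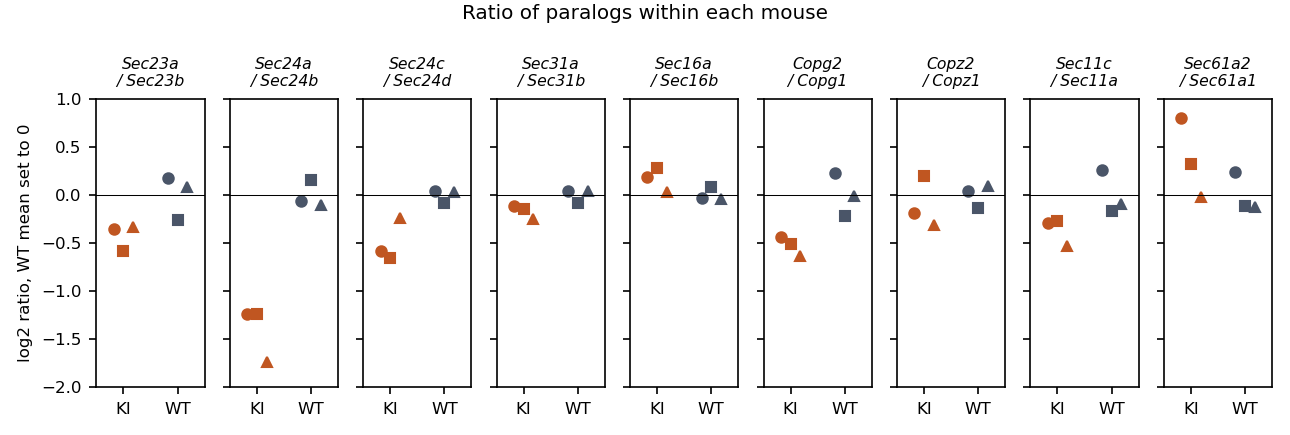
Log2 ratio of each of the 9 paralog pairs in each mouse, with the wild-type mean set to 0; knock-in points are left and wild-type points right, with circles for mice 1 and 2, squares for mice 3 and 4 and triangles for mice 5 and 6. Sec24a over Sec24b shows the widest gap, a difference of -1.41.

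Other genes of the route, from lists of partners that the symbol rule does not take, were counted in the same fit. Of 40 COPII partners tested, 13 fell and 3 rose (32.5% and 7.5%, against 13.7% and 13% of all named genes), with a median log2 change of -0.24. Ergic1 and Ergic3, which cycle through the ER-Golgi intermediate compartment, fell by 0.71 and 0.69 on the log2 scale (SE 0.10 and 0.13; limma adjusted p = 0.00273 and 0.00732). Ergic1 read 1394, 1502 and 1388 in knock-in mice, against 2201, 2597 and 2237 in wild-type mice, a gap far wider than the spread within either genotype. Rab1b, a GTPase of vesicle tethering, read 1567, 1565 and 1660 in knock-in mice, against 2393, 2256 and 2529 in wild-type mice (log2 change -0.58 ± 0.09, limma adjusted p = 0.00344). Rab1a and Ergic2 overlapped between the genotypes and were not called (log2 change -0.02 ± 0.10 and -0.29 ± 0.14, limma adjusted p = 0.898 and 0.168). Yif1a fell by 0.64 ± 0.13 on the log2 scale (limma adjusted p = 0.0125). Klhl12, an adaptor of the ubiquitin ligase that modifies Sec31, rose by 0.72 ± 0.12 on the log2 scale (limma adjusted p = 0.00591), with 275, 207 and 253 in knock-in mice, against 151, 128 and 148 in wild-type mice. The calls of Ergic1, Ergic3, Rab1b, Yif1a and Klhl12 held with each mouse left out in turn. The number of COPII partners that fell was 4 without knock-in mouse 1, 6 without wild-type mouse 2 and 5 without wild-type mouse 6, and 1 rose without knock-in mouse 1 or wild-type mouse 6.

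Partners of protein entry and of COPI were called about as often as other genes. Of 34 protein entry partners 6 fell and 3 rose, so that 26.5% were called, against 26.7% of all named genes. Tram2 (log2 change -0.57 ± 0.11, limma adjusted p = 0.0105) and Ddost, a subunit of the oligosaccharyltransferase (-0.55 ± 0.14, adjusted p = 0.0238), were among those that fell. Srpr, the receptor of the signal recognition particle (0.41 ± 0.11, adjusted p = 0.0294), Get4 (0.45 ± 0.12, adjusted p = 0.0283) and Btf3 (0.32 ± 0.08, adjusted p = 0.0202) rose. Apart from that of Tram2, these calls were lost with single mice left out. Those of Get4 and Srpr were also lost with arrays centred on their medians (adjusted p = 0.0590 and 0.0681), and that of Btf3 with the mean of its probe sets (adjusted p = 0.115). There were 10 lower calls without knock-in mouse 3, 3 without wild-type mouse 4 and 1 without any of the other mice, with 0 higher calls without knock-in mouse 1 or wild-type mouse 2 and 1 without wild-type mouse 4 or 6. Of 20 COPI partners 3 fell and 3 rose (15% each way, against 13.7% lower and 13% higher of all named genes). Golga5, a golgin, read 657, 587 and 692 in knock-in mice, against 386, 339 and 387 in wild-type mice (log2 change 0.77 ± 0.11, limma adjusted p = 0.00270), and Tmf1, another golgin, rose by 0.40 ± 0.09. Kdelr1, a receptor that returns ER proteins, Rer1, which returns membrane proteins, and Gbf1, the exchange factor that activates Arf1 at the Golgi, fell by 0.35 ± 0.09, 0.52 ± 0.14 and 0.35 ± 0.10 on the log2 scale (limma adjusted p = 0.0280, 0.0303 and 0.0356). The 3 that fell were lost without knock-in mouse 1 or 5 or wild-type mouse 2 or 6, and Kdelr1 also without wild-type mouse 4, while 1 partner rose without knock-in mouse 1 or wild-type mouse 2 or 6.

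Of 18 ER-Golgi SNAREs and their helpers, 4 rose (Use1, Stx18, Gosr1 and Gosr2) and 1 fell (Bet1), so that 27.8% were called, against 26.7% of all named genes, with a median log2 change of 0.11. Use1, a SNARE of retrograde vesicles at the ER, read 3064, 2952 and 2966 in knock-in mice, against 2208, 1959 and 2313 in wild-type mice (log2 change 0.47 ± 0.09, limma adjusted p = 0.00877). Bet1, a vesicle SNARE, read 140, 186 and 92 in knock-in mice, against 270, 241 and 296 in wild-type mice (log2 change -0.92 ± 0.21, limma adjusted p = 0.0189). Gosr1 and Gosr2 were not called with arrays centred on their medians, and 1 rose without knock-in mouse 1 or 5 or wild-type mouse 2 and 2 without wild-type mouse 4, while Bet1 was lost without knock-in mouse 1 or wild-type mouse 2 or 6. Of 11 regulators of the secretory pathway tested, 2 rose and 1 fell (27.3% called, against 26.7% of all named genes). Atf6, an ER stress sensor and transcription factor, read 2297, 2307 and 2393 in knock-in mice, against 1322, 1435 and 1327 in wild-type mice (log2 change 0.77 ± 0.08, limma adjusted p = 0.00117), and Atf6b rose by 0.45 ± 0.10, a call lost without knock-in mouse 1 or wild-type mouse 2 or 6. Creb3l3, a hepatocyte transcription factor cleaved at the Golgi, read 455, 714 and 321 in knock-in mice, against 1518, 1275 and 1617 in wild-type mice (log2 change -1.60 ± 0.26, limma adjusted p = 0.00485). Xbp1, which in other secretory cells drives genes of this route, had a log2 change of 0.00 ± 0.12 and the chaperone gene Hspa5 one of 0.16 ± 0.13 (limma adjusted p = 0.994 and 0.411). Dnajb9, of the same list, narrowly missed the threshold, with a log2 change of 0.48 ± 0.15 (limma adjusted p = 0.0525). Every knock-in mouse (1953 to 2500) lay above every wild-type mouse (1386 to 1889) at Dnajb9. The levels are of total transcript, so spliced and unspliced Xbp1 and cleaved and uncleaved Atf6 were not measured apart.

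**Figure D5:**
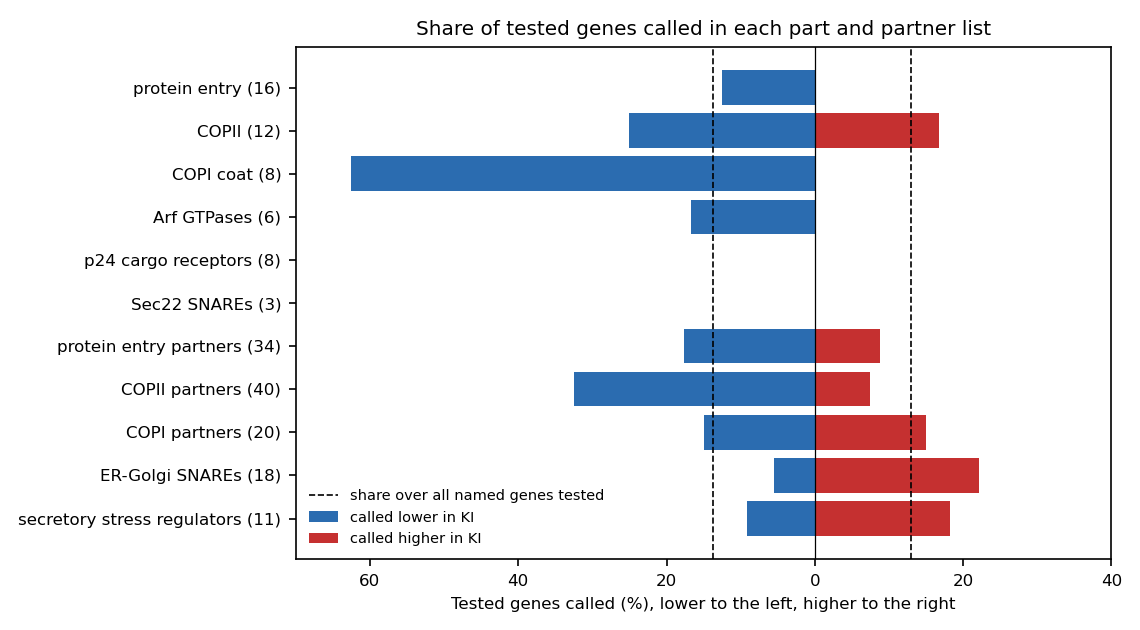
Share of tested genes called lower (left, blue) and higher (right, red) in each part and partner list, with the number tested in brackets and dashed lines at the shares over all named genes (13.7% lower, 13% higher). The COPI coat has the longest bar, 62.5% lower, and the p24 receptors and Sec22 SNAREs have none.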

How the data were processed

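Liver RNA of 6 mice was measured on 1-colour arrays, 1 per mouse. The authors deposited linear intensities for each probe set, rounded to whole numbers. Their summarisation, normalization and genome build are not stated in the labels or headers used here. Gene names came from the platform annotation, for probe sets with 1 symbol. Log2(intensity + 16) was tested with limma 3.58.1 (lmFit, eBayes with trend) in R 4.3.3, after leaving out probe sets with a mean under the 25th percentile (38.7), and p-values were adjusted over the whole table. A gene with several probe sets is represented by that with the highest mean. Tables were handled with Python 3.11.15, pandas 2.3.3 and matplotlib 3.10.9, and the fit was tested on simulated data.

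Any member could be named, with values in every mouse for up to 5 called members a part and for paralogs that differ in call, and of each partner list up to 5 called genes by smallest p. Values by mouse of other members, and Arcn1, Xbp1, Hspa5, Dnajb9, Rab1a and Ergic2, were chosen after their values were seen. RefSeq promoters were searched for the letters given and for ERSE and ERSE-II. Members, lists and partner genes were chosen with earlier results of these data known. The labels do not say whether the mice were littermates. The number of arrays limits the precision. Alternatives were pseudocounts of 1 and 64, no filter or one at the 50th percentile, quantile normalization, centred arrays, array weights, no trend, the mean of a gene's probe sets, a threshold of 0.1, and each mouse left out. Srp54 probe sets carry several symbols, and Sec61g and Tmed1 were not analysed here.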

Additional observations from a re-analysis of the deposited data

How the results depend on the processing

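No paired analysis was made because the labels name no pairs of knock-in and wild-type mice, so whether any were paired is unknown. With each mouse left out in turn, the whole table had 2448 to 4303 higher and 1810 to 3456 lower calls. Members had 0 to 2 higher and 3 to 19 lower, protein entry 0 to 1 and 0 to 5, COPII 0 to 2 and 2 to 4, and the COPI coat 1 to 6 lower. Lower calls ran from 0 to 2 for Arf genes, 0 to 1 for p24 and 0 to 1 for Sec22 genes. Higher and lower calls were 0 to 2 and 1 to 10 for protein entry partners, 1 to 3 and 4 to 17 for COPII partners, 1 to 3 and 0 to 3 for COPI partners, 1 to 5 and 0 to 1 for SNAREs, and 1 to 3 and 1 for regulators. Median log2 changes ran from -0.27 to -0.13 for members, -0.25 to -0.13 for protein entry, -0.22 to -0.04 for COPII, -0.49 to -0.34 for COPI, -0.29 to -0.20 for Arf, 0.01 to 0.09 for p24 and -0.12 to -0.04 for Sec22.

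At an adjusted p below 0.1, lower calls were 18 of the members, 4 of protein entry, 2 Arf, 1 p24 and 1 Sec22 gene, and higher calls 1 p24 gene and 7 SNAREs. With no filter, lower calls were 1 of protein entry, 0 Arf genes and 2 protein entry partners. With array weights, they were 4 of protein entry, 2 Arf genes, 1 p24 gene and 10 protein entry partners. With centred arrays, 2 Arf genes and 1 Sec22 gene were lower, 1 protein entry partner and 2 SNAREs were higher, and the Sec22 median was -0.13. A filter at the 50th percentile gave 2 lower Arf genes, quantile normalization 1 lower Sec22 gene, and the fit without trend 7 higher SNAREs. The cause was not tested.

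No called member changed sign. Uncalled log2 changes near 0 did. Sec16b was 0.011 with quantile normalization and 0.0088 with array weights, Sec22b -0.015 and Srp72 -0.024 with centred arrays. As mice were left out, Sec16b ran from -0.0851 to 0.075, Sec23b from -0.31 to 0.040, Sec31b from -0.20 to 0.010, Srp19 from -0.062 to 0.0019, Srp72 from -0.039 to 0.10 and Tmed8 from -0.026 to 0.15.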
